A study of Arabidopsis thaliana with 109 samples.

Results

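Wild type (Col-0) Arabidopsis thaliana and the pif457 line were each grown in white light and sampled either there or after 30 min at a low ratio of red to far-red (low R:FR), which gives 4 groups of 2 RNA-seq libraries. The measure followed here is the difference between the genotypes in the response to low R:FR, called the interaction below: the log2 response of pif457 minus the log2 response of wild type. All 8 libraries of the experiment entered, out of 109 samples and 29 RNA-seq libraries in the series, and 24384 of 33602 gene models had a value above 0 in at least 1 of them. The labels describe light-grown seedlings on Linsmaier and Skoog medium and total RNA. They give no age, no hour of harvest and no alleles for pif457, and nothing in them says whether replicates are separate cultures. The p-values therefore rest on the spread between libraries, which may be technical. The comparison asks which genes need PIF4, PIF5 or PIF7 in order to answer low R:FR within 30 min.

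Neighbouring vegetation lowers the R:FR of the light that reaches a seedling. This turns phytochrome B, the red light receptor, toward its inactive form, which frees the phytochrome-interacting factors (PIFs), a group of bHLH transcription factors that bind the G-box CACGTG. Known early targets are HD-Zip class II transcription factors, atypical bHLH proteins that restrain the PIFs, and YUCCA flavin monooxygenases, which catalyse the last step of auxin synthesis and so feed the elongation of stems and petioles.

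Several genes described below lie near a deposited PIF7 binding event. Among them, YUC8, PIL1, HFR1 and PHYB did not pass the test of the interaction given further on. The sequences that the event caller assigned to the genes are shown here because the genes recur through the results. Each is the k-mer of the pooled ZT4 list called against white light, in lower case with the G-box in capitals. Chromosome and event position (TAIR10) are given after each, the strand is not given, and an event within 3 kb may belong to a neighbouring gene.

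ATHB4: gttCACGTGggaagt (chromosome 2, position 18521583)
YUC9: cCACGTGgaga (chromosome 1, position 1103365)
YUC5: atcCACGTGgttg (chromosome 5, position 17651771)
YUC8: tctcCACGTGgctt (chromosome 4, position 14192086)
PIL1: gctCACGTGggcc (chromosome 2, position 19298948)
HFR1: tccCACGTGggtt (chromosome 1, position 468876)
BIM1: aggaCACGTGgcag (chromosome 5, position 2612887)
PHYB: gatCACGTGggcta (chromosome 2, position 8139647)

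All 8 strings hold the same 6 bases, and the bases beside them differ. The 8 were picked, so their agreement is no result. In the same list the k-mer at HAT1 read cca, and HAT2, PAR1 and IAA2 had events without a k-mer. The k-mer at YUC9 read acacgt in the 30 min list and in the ZT4 list against IgG. In the latter list ATHB4 had cgtgaa and BIM1 had cacatg. ATHB2 had an event in the 30 min list alone, with the bare k-mer CACGTG. The k-mers at HAT1 and HAT2 in the 30 min list read cacatg, and HAT3, YUC2, FSD1 and YSL2 had no event within 3 kb in any of the 3 lists.

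Values are the authors' TPM, a share of all transcripts that takes gene length into account, responses are differences of log2(TPM + 1), and a gene is called at a Benjamini-Hochberg adjusted p under 0.05 over all genes tested (limma). TPM keeps no read depth, so the depth is unknown. The libraries held 17714 to 19215 genes at 1 TPM or more. rRNA and organellar transcripts took 23.1% of TPM in pif457 30 min replicate 1 and 4.09% to 12.0% in the other 7 libraries, and the median level of genes of at least 5 TPM was 3.92 in that library against 4.26 to 4.42 in the others (log2). The median interaction over all genes was not 0 but -0.20 as deposited, with a median response of 0.05 in wild type and -0.14 in pif457. The part of that library's composition in this shift was not tested. Because of the shift each result is also given centred, with each library's median subtracted. The medians were then 0.06, -0.02 and 0.06.

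**Figure D1:**
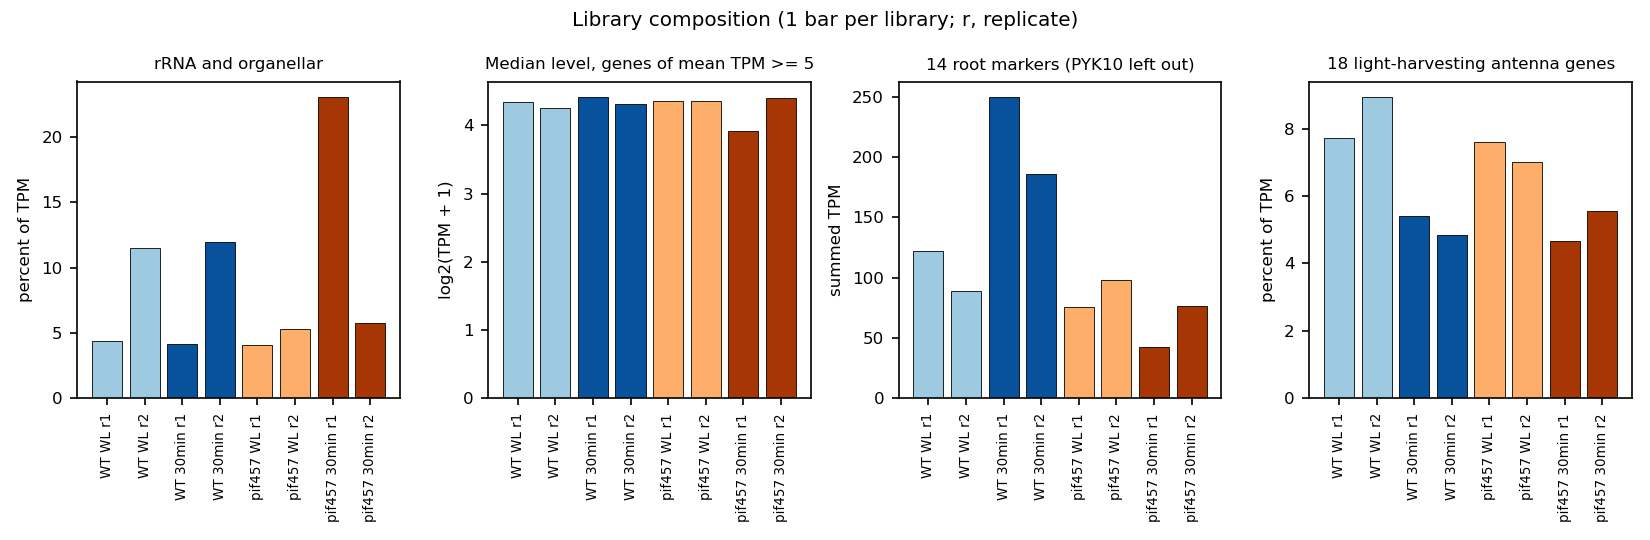
Composition of the 8 libraries, 1 bar per library: percent of TPM from rRNA and organellar genes, median log2(TPM + 1) of genes of at least 5 TPM, summed TPM of 14 root markers, and percent of TPM from 18 antenna genes. Replicate 1 of pif457 after 30 min has the highest rRNA and organellar share at 23.1% and the lowest median at 3.92, and the wild type libraries after 30 min have the highest root marker sums at 250 and 186 TPM.

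PIF5 and PIF7 transcripts were lower in pif457 than in wild type in white light, by 3.16 and 3.77 on the log2 scale (adjusted p = 0.00774 for both, limma). PIF4 stood at 32.5 and 47.1 TPM in wild type and 11.9 and 11.3 TPM in pif457, a log2 difference of -1.67 with adjusted p = 0.297 as deposited and 0.012 centred. None of the 3 genes was called for the interaction, with values of 0.20, 0.34 and 0.09 for PIF4, PIF5 and PIF7 and adjusted p of 0.786 to 0.953. Since the alleles are not given, how far these transcript levels check the genotype is not known. Beyond the PIFs, 5 genes differed in white light as deposited, among them MRD1 (0.81 and 0.48 TPM in wild type, 37.8 and 35.4 TPM in pif457) and QQS (149 and 152 TPM against 25.4 and 28.0 TPM). These 2 were named after their values were seen.

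For the interaction, 10 genes were called as deposited, which is 0.041% of genes tested, with 8 lower in pif457 (0.0328%) and 2 higher (0.0082%). At an unadjusted p under 0.05 there were 2818. Centred, 197 genes were called (0.808%), 138 lower (0.566%) and 59 higher (0.242%), and 5 of the 10 genes called as deposited were among them. The response itself was called for 29 genes in wild type (0.119%) and 3 genes in pif457 (0.0123%) as deposited, and for 378 (1.55%) and 174 (0.714%) centred. In white light 7 genes differed between the genotypes as deposited (0.0287%) and 20 centred (0.082%), and after 30 min 1280 (5.25%) and 2332 (9.56%) did. Of the 138 genes lower when centred, 128 had a positive response in wild type and a negative one in pif457, 9 were positive in both and 1 negative in both. In 90 of them the wild type response was the larger of the pair. Of the 59 genes higher when centred, 58 had a negative response in wild type and a positive one in pif457. Since these genes were picked by the interaction, the signs follow in part from the choice.

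Counts depended on single libraries. Leaving out pif457 30 min replicate 2, so that its partner with 23.1% rRNA and organellar TPM stood alone, gave 3145 interaction calls as deposited (3106 lower). Leaving out WT 30 min replicate 2 gave 29 (all lower), pif457 white light replicate 1 gave 21 (20 lower) and replicate 2 gave 16 (15 lower). The balance of directions turned without WT white light replicate 1 (12 higher, 3 lower), WT white light replicate 2 (7 and 3) and pif457 30 min replicate 1 (6 and 2). Centred, leaving out 1 library at a time gave between 11 calls (without pif457 30 min replicate 2) and 627 (without WT white light replicate 1).

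**Figure D2:**
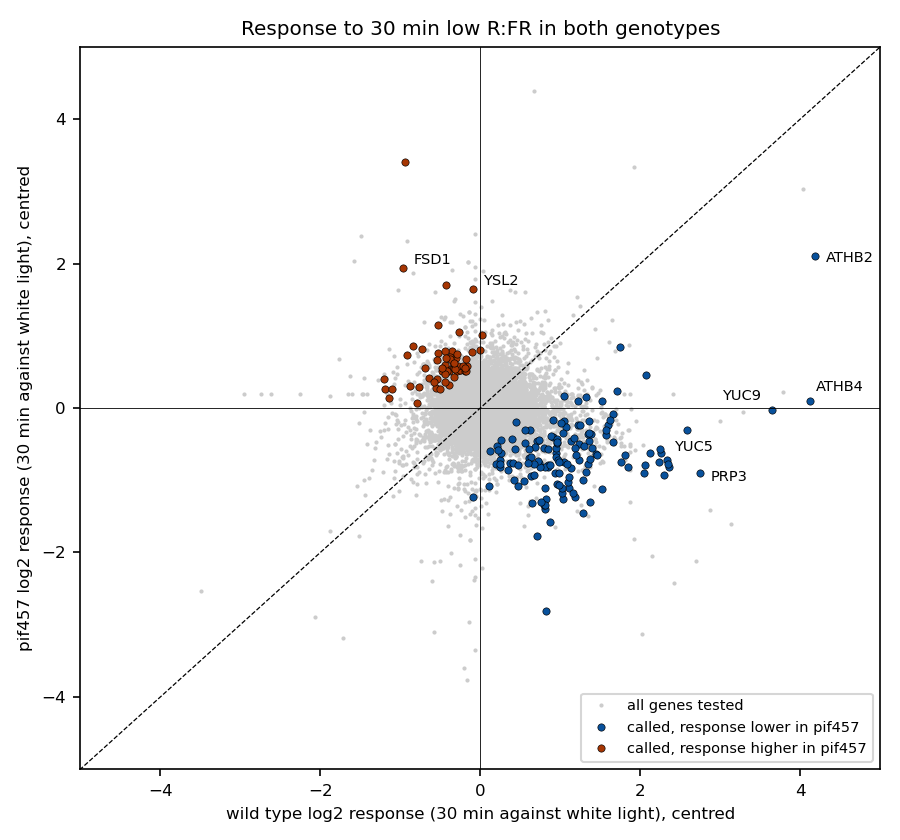
Centred log2 response to 30 min of low R:FR in wild type (x axis) and pif457 (y axis) for all 24384 genes tested, with the 138 genes called lower and the 59 called higher in pif457 in colour and the line of equal response dashed. ATHB4, YUC9 and YUC5 lie far to the right near a pif457 response of 0, ATHB2 lies to the right at a pif457 response of 2.11, and FSD1 lies to the upper left; 5 genes fall outside the axes at 5.

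In the HD-Zip class II family the wild type rise at 30 min was smaller or not called in pif457. ATHB4 (AT2G44910), a homeodomain-leucine zipper factor of shade avoidance, measured 3.48 and 3.63 TPM in wild type in white light against 87.1 and 77.2 TPM after 30 min. In pif457 it measured 5.02 and 5.72 TPM before and 3.89 and 6.22 TPM after low R:FR. Both wild type libraries after 30 min stood far above all 6 others. The pif457 groups overlapped each other, and the wild type white light libraries lay a little below both. The interaction was -4.29 (SE 0.328, 95% interval -5.04 to -3.53, adjusted p = 0.00883, limma) and -4.03 centred (adjusted p = 8.36e-06). As deposited, its adjusted p lay between 0.0118 and 0.1 with 1 library left out, and was at or above 0.0528 without either wild type white light library, without either wild type 30 min library, and without pif457 white light replicate 2. Centred, the call held without each of the 8 libraries in turn.

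ATHB2 (AT4G16780), another member of the class and a long-used marker of shade, behaved differently in pif457. It measured 5.41 and 7.65 TPM in wild type in white light against 149 and 133 TPM after 30 min. In pif457 it rose from 3.69 and 4.33 TPM to 18.5 and 17.35 TPM. Both genotypes thus rose without overlap between light conditions, and the pif457 30 min libraries stayed below the wild type ones. Centred, the response was 4.19 in wild type (adjusted p = 1.95e-05) and 2.11 in pif457 (adjusted p = 0.00505, limma). The interaction of -2.33 missed the threshold as deposited (SE 0.275, adjusted p = 0.0528) and passed it centred at -2.08 (adjusted p = 0.0178). The centred call was lost, with adjusted p up to 0.107, without WT 30 min replicate 1 or without either pif457 30 min library.

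HAT1 (AT4G17460) also kept part of its response. Its level went from 22.0 and 26.4 TPM to 88.0 and 85.9 TPM in wild type, and from 20.9 and 22.9 TPM to 31.2 and 39.3 TPM in pif457. The pif457 rise passed when centred, at 0.85 (adjusted p = 0.0226, limma), against 1.74 in wild type (adjusted p = 2.85e-04). The difference of these responses passed narrowly, at -0.89 (adjusted p = 0.0493), and 3 of 8 fits that left out a library kept it.

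HAT2 (AT5G47370) and HAT3 (AT3G60390) rose in wild type and gave no call in pif457. HAT2 went from 13.2 and 17.2 TPM to 36.3 and 29.8 TPM in wild type, against 13.2 and 13.5 TPM and then 8.04 and 12.0 TPM in pif457. HAT3 went from 15.4 and 15.1 TPM to 41.5 and 35.8 TPM in wild type, against 17.64 and 17.9 TPM and then 16.2 and 17.1 TPM in pif457. In both genes the wild type 30 min libraries stood above the other 6. Centred interactions were -1.22 (adjusted p = 0.0315) and -1.12 (adjusted p = 0.0337, limma). As deposited neither passed (adjusted p = 0.163 and 0.0974), and 4 and 3 of 8 fits that left out a library kept the centred calls. All 5 HD-Zip II genes of the shade list were thus called lower when centred, against 0.566% of all genes. The order was ATHB4, ATHB2, HAT2, HAT3 and HAT1, and the intervals of HAT1, HAT2 and HAT3 overlap.

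**Figure D3:**
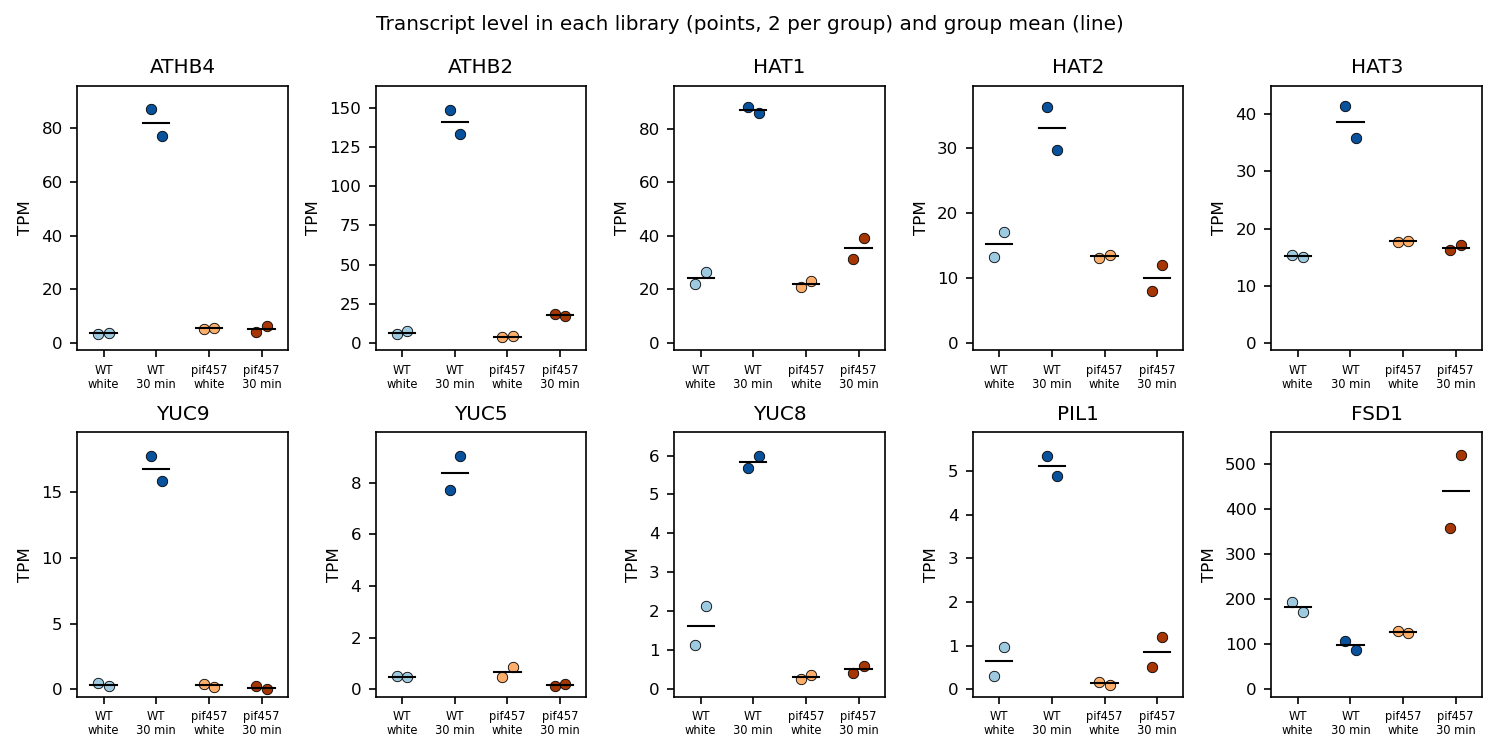
TPM in each of the 8 libraries for 10 genes (points, 2 per group; line, group mean), with white light and 30 min of low R:FR side by side for wild type and pif457. ATHB4, HAT2, HAT3, YUC9 and YUC5 are high in the wild type 30 min libraries alone, ATHB2 and HAT1 also rise in pif457, and FSD1 is highest in pif457 after 30 min at 358 and 521 TPM.

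Among the auxin biosynthesis genes, YUC9 and YUC5 rose in wild type and gave no call in pif457. YUC9 (AT1G04180) measured 0.50 and 0.22 TPM in wild type in white light against 17.8 and 15.9 TPM after 30 min, whereas the 4 pif457 libraries lay between 0 and 0.41 TPM. YUC5 (AT5G43890) went from 0.50 and 0.49 TPM to 7.73 and 9.02 TPM in wild type. In pif457 it was at 0.46 and 0.88 TPM, then 0.14 and 0.20 TPM. The wild type 30 min libraries of both genes stood apart from all others, and the base level was under 1 TPM. Interactions were -3.93 for YUC9 (SE 0.262, adjusted p = 0.00883, limma) and -3.15 for YUC5 (SE 0.231, adjusted p = 0.00883), and both passed centred (adjusted p = 0.00399 and 0.00553). Because log2(TPM + 1) flattens low levels, these sizes depend on the pseudocount. The YUC9 call held without each library in turn on both scales. The YUC5 call as deposited was lost without either wild type white light library (adjusted p = 0.0514 and 0.083) and without pif457 30 min replicate 1 (0.086), and the centred call was lost without pif457 30 min replicate 2 (0.0555).

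YUC2 (AT4G13260), the third auxin biosynthesis gene called when centred, went from 3.02 and 2.62 TPM to 10.1 and 10.9 TPM in wild type. It stayed at 2.35 to 3.31 TPM in the 4 pif457 libraries. Its interaction was -1.43 centred (adjusted p = 0.0196, limma) and -1.69 as deposited (adjusted p = 0.133), and the centred call was lost without any 1 of the 4 libraries taken after 30 min (adjusted p up to 0.116). YUC8 (AT4G28720) went from 1.14 and 2.13 TPM to 5.68 and 5.99 TPM in wild type and stayed at 0.26 to 0.60 TPM in pif457. Its groups did not overlap between genotypes in either light, yet the interaction of -1.20 had adjusted p = 0.172 as deposited and 0.207 centred. In all, 3 of 11 auxin biosynthesis genes were called lower and 0 higher when centred, where the shares over all genes were 0.566% and 0.242%. The list's median interaction was -0.43, against 0.06 over all genes, and 4 members had an unadjusted p under 0.05. TAA1, the aminotransferase that acts before the YUCCA enzymes, was not called (12.7 to 22.1 TPM in wild type, 9.61 to 12.9 TPM in pif457).

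HFR1, an atypical bHLH gene whose protein restrains the PIFs, responded in both genotypes, from a lower level in pif457. HFR1 (AT1G02340) went from 5.23 and 6.72 TPM to 23.2 and 20.5 TPM in wild type and from 1.55 and 1.84 TPM to 4.08 and 4.97 TPM in pif457. Its centred response passed in each genotype, at 1.65 (adjusted p = 0.00346) and 1.23 (adjusted p = 0.0164, limma). The interaction was -0.43 centred (adjusted p = 0.464, limma). As deposited it was -0.68 with a 95% interval of -1.41 to 0.05 (adjusted p = 0.47), and an interval this wide does not show that the genotypes respond alike. The level of HFR1 differed between genotypes on the centred scale, by -1.42 in white light (adjusted p = 0.0129) and by -1.84 after 30 min (adjusted p = 4.85e-04). PIL1 (AT2G46970), a bHLH gene named for its likeness to PIF3, went from 0.31 and 0.98 TPM to 5.34 and 4.89 TPM in wild type and from 0.17 and 0.11 TPM to 0.51 and 1.21 TPM in pif457. Its interaction of -1.24 did not pass on either scale (adjusted p = 0.207 and 0.175). PAR1 went from 6.61 and 8.96 TPM to 16.8 and 11.2 TPM in wild type and lay at 3.07 to 4.41 TPM in pif457, with adjusted p = 0.361 as deposited.

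PKS1 (AT2G02950), a phytochrome-binding protein gene, was the 1 member of the 15 shade-induced regulators called higher when centred. It went from 18.6 and 18.4 TPM to 11.6 and 10.4 TPM in wild type and from 14.8 and 16.2 TPM to 14.0 and 19.7 TPM in pif457, with 1.06 centred (adjusted p = 0.0178) and 0.80 as deposited (adjusted p = 0.316, limma). The centred call was lost without WT 30 min replicate 1 and without either pif457 30 min library. Of the 15, then, 5 were lower and 1 higher when centred, and 1 was lower as deposited. The shares over all genes were 0.566% and 0.242% centred and 0.0328% as deposited. The centred interaction was below 0 in 8 of the 15. The median of the list was -0.43, from median responses of 0.69 in wild type and 0.09 in pif457.

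Brassinosteroid signalling gave 1 call among 15 genes when centred, where the share over all genes was 0.808%. BIM1 (AT5G08130), a bHLH partner of the brassinosteroid factor BES1, went from 27.2 and 23.9 TPM to 70.1 and 66.1 TPM in wild type and was at 29.5 and 24.9 TPM, then 20.6 and 33.4 TPM in pif457. Its centred interaction was -1.17 (adjusted p = 0.0178) and its value as deposited was -1.43 (adjusted p = 0.165, limma). The centred call was lost without WT 30 min replicate 1 and without either pif457 30 min library. DWF4, a rate-limiting enzyme of brassinosteroid synthesis, had -0.47 centred and was not called (adjusted p = 0.277). PHYB (AT2G18790), which encodes phytochrome B itself, went from 23.3 and 19.1 TPM to 42.2 and 42.2 TPM in wild type and from 25.3 and 25.4 TPM to 16.6 and 30.9 TPM in pif457. The wild type groups of PHYB were apart and the pif457 groups overlapped, but the interaction did not pass (-0.86 centred, adjusted p = 0.0694).

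In 15 of the 20 lists, with 255 members tested, limma called no member on either scale, where the share over all genes was 0.041% as deposited and 0.808% centred. A count of 0 among 255 genes is near those shares, so nothing is read from it. At an unadjusted p under 0.05 there were 36 members as deposited (14.1%, against 11.6% of all genes) and 51 centred (20.0%, against 14.0%). A fit restricted to genes of at least 1 TPM called 10 lower and 2 higher, where the shares over all genes of that fit were 3.9% and 0.394%. Fewer than the 255 members entered that fit, and its p-values rest almost wholly on variance pooled over genes, so nothing is read from these calls. The 30 Aux/IAA and GH3 genes, early auxin-induced genes, had a median interaction of -0.14 as deposited and 0.12 centred, and the 23 SAUR genes 0.09 and 0.35. IAA19 and IAA29, a pair of Aux/IAA repressors often used as shade markers, had -0.34 and -0.43 as deposited (adjusted p = 0.831 and 0.827), and XTH15, a cell wall enzyme gene, had -0.49 (adjusted p = 0.777). SAUR6 had the smallest p of its list, going from 88.4 and 90.2 TPM to 118 and 119.6 TPM in wild type and from 84.2 and 92.3 TPM to 140 and 153 TPM in pif457, with adjusted p = 0.531 as deposited and 0.17 centred. In both genotypes the 30 min libraries of SAUR6 stood above the white light ones.

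Centred medians of the interaction in the remaining lists were -0.05 for gibberellin (19 genes), 0.17 for growth-regulating HLH factors (8), -0.20 for cytokinin (16), 0.04 for ethylene (16) and 0.00 for cell wall loosening (19). They were 0.08 for phytochromes and PIFs (12), 0.07 for the circadian clock (20), 0.44 for the light-harvesting antenna (18), 0.05 for photomorphogenesis (16) and 0.07 for H2A.Z and its remodellers (13 tested). Flavonoid genes (12) had -0.47, jasmonate genes (17) -0.25, touch and rapid stress genes (16) 0.13, and brassinosteroid genes (15) 0.08. The antenna list had negative median responses in both genotypes on the centred scale, -0.70 in wild type and -0.24 in pif457, and 2 members had an unadjusted p under 0.05 for the interaction.

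In the lists with no call, the members of small p included GA3OX2, a gibberellin synthesis enzyme (-1.46 centred, adjusted p = 0.117), PRE1, a growth-promoting HLH factor (-0.76, adjusted p = 0.28), and CKX4, a cytokinin oxidase (-1.02, adjusted p = 0.0995). ACO1, an ethylene-forming enzyme, had -0.71 (adjusted p = 0.196), and XTH17, a xyloglucan enzyme, had -1.58 (adjusted p = 0.164). Positive values that did not pass were those of XTH22, also known as TCH4 (1.81, adjusted p = 0.151), and of the calmodulin-like touch gene TCH3 (1.32, adjusted p = 0.0878). MYB12, a regulator of flavonol synthesis, had -0.94 (adjusted p = 0.179), LOX2, a lipoxygenase of jasmonate synthesis, -1.31 (adjusted p = 0.0869), and AOC3, the next but one enzyme of that route, -1.27 (adjusted p = 0.103).

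**Figure D4:**
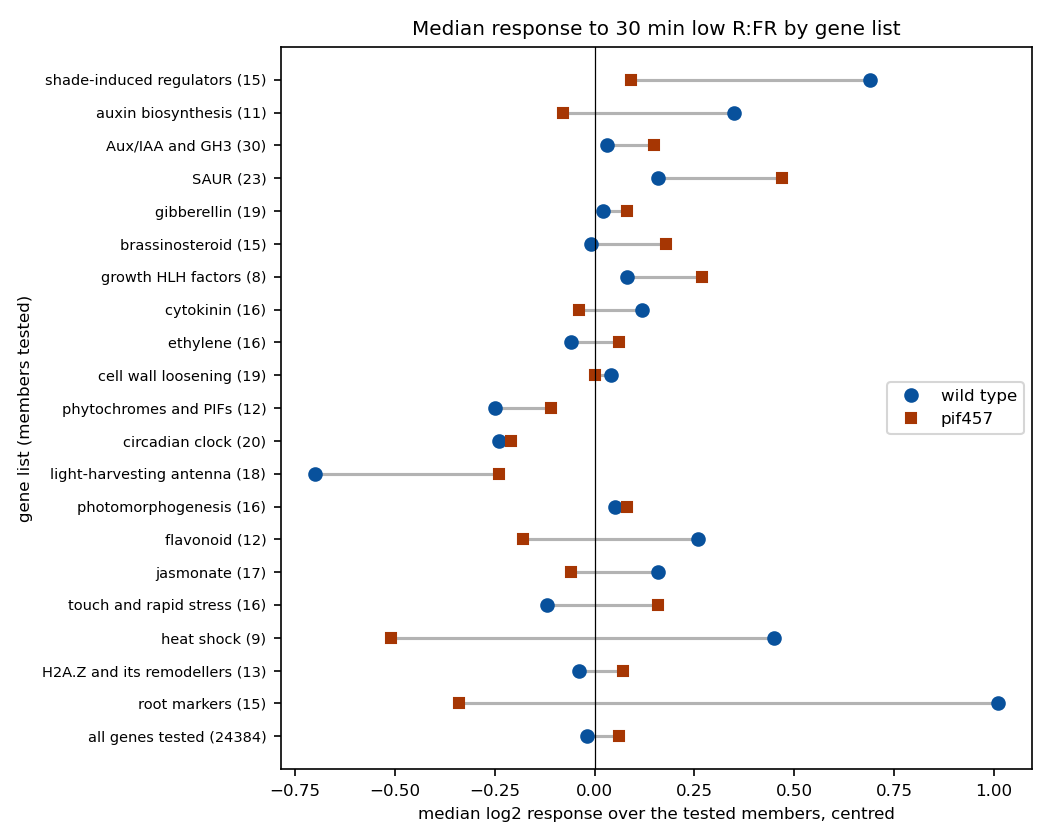
Median centred log2 response over the tested members of each gene list and over all genes tested, for wild type (circles) and pif457 (squares), with the number of members beside each name. The widest gaps between the genotypes are those of root markers (1.01 against -0.34), heat shock genes (0.45 against -0.51) and shade-induced regulators (0.69 against 0.09).

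Shade genes can also be chosen in libraries that this experiment does not share. A wild type experiment compared 2 h of low R:FR with white light (3 libraries each), and a time course of pif457 carrying tagged PIF7 (PIF7:PIF7:4xMYC) compared 30 min with white light (3 libraries each). The first called 314 genes raised (1.24% of those tested) and 186 lowered (0.734%), and the second 934 raised (3.80%) and 254 lowered (1.03%). Values were set side by side as changes within each experiment only. Both raised 34 genes at least 2-fold, and 25 of these (73.5%) had a centred interaction below 0, against 41.9% of all genes. As deposited 29 of 34 (85.3%) were below 0, against 77.2% of all genes. Their median centred response was 0.68 in wild type and 0.22 in pif457. Centred, 6 of 34 were called, all lower, against the 0.566% over all genes: YUC9, ATHB2, HAT2, HAT1, AT5G12050 and AT5G66580. As deposited 1 of the 34 was called lower (YUC9), against 0.0328% of all genes. The same 34 genes had a median interaction of -0.57 centred and -0.83 as deposited. The 86 genes raised in both without a fold limit had -0.20 centred and -0.46 as deposited.

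AT5G12050 went from 14.7 and 19.3 TPM to 78.4 and 76.6 TPM in wild type and from 7.71 and 7.89 TPM to 7.89 and 11.5 TPM in pif457 (centred interaction -1.62, adjusted p = 0.0145; 0.106 as deposited, limma). AT5G66580 went from 5.05 and 5.43 TPM to 23.7 and 17.58 TPM in wild type and was at 6.12 to 7.30 TPM throughout pif457 (-1.48, adjusted p = 0.0498; 0.121 as deposited). In both genes the wild type 30 min libraries alone were high. The first centred call was lost without WT 30 min replicate 1 and without either pif457 30 min library, and the second without each library in turn. Genes of the 34 that were not lower in pif457 included SAUR21 (centred responses of 1.25 in wild type and 1.41 in pif457), RTFL16 (0.40 and 0.75), GASA6 (0.23 and 0.44) and CIB1 (-0.86 and -0.14). FLP1, at 1.27 and 0.33, had a large gap without a call (adjusted p = 0.406).

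Longer lists of the same kind followed. Genes raised in the 2 h experiment (313 with values here) had a median centred interaction of -0.09, with 59.4% below 0. The 934 raised in the tagged PIF7 time course had 0.10, with 38.7% below 0. Median centred responses here were 0.11 in wild type and 0.02 in pif457 for the 313 genes, and -0.05 and 0.08 for the 934. The 934 genes thus had no median rise in wild type here that could differ in pif457. The 186 genes lowered at 2 h had 0.33, with 15.1% below 0 and median responses of -0.20 in wild type and 0.15 in pif457. ATHB4 rose by 4.58 with tagged PIF7 at 30 min (adjusted p = 7.51e-08) and had 0.77 at 2 h in wild type (adjusted p = 0.383, limma), so it is not among the 34 genes.

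**Figure D5:**
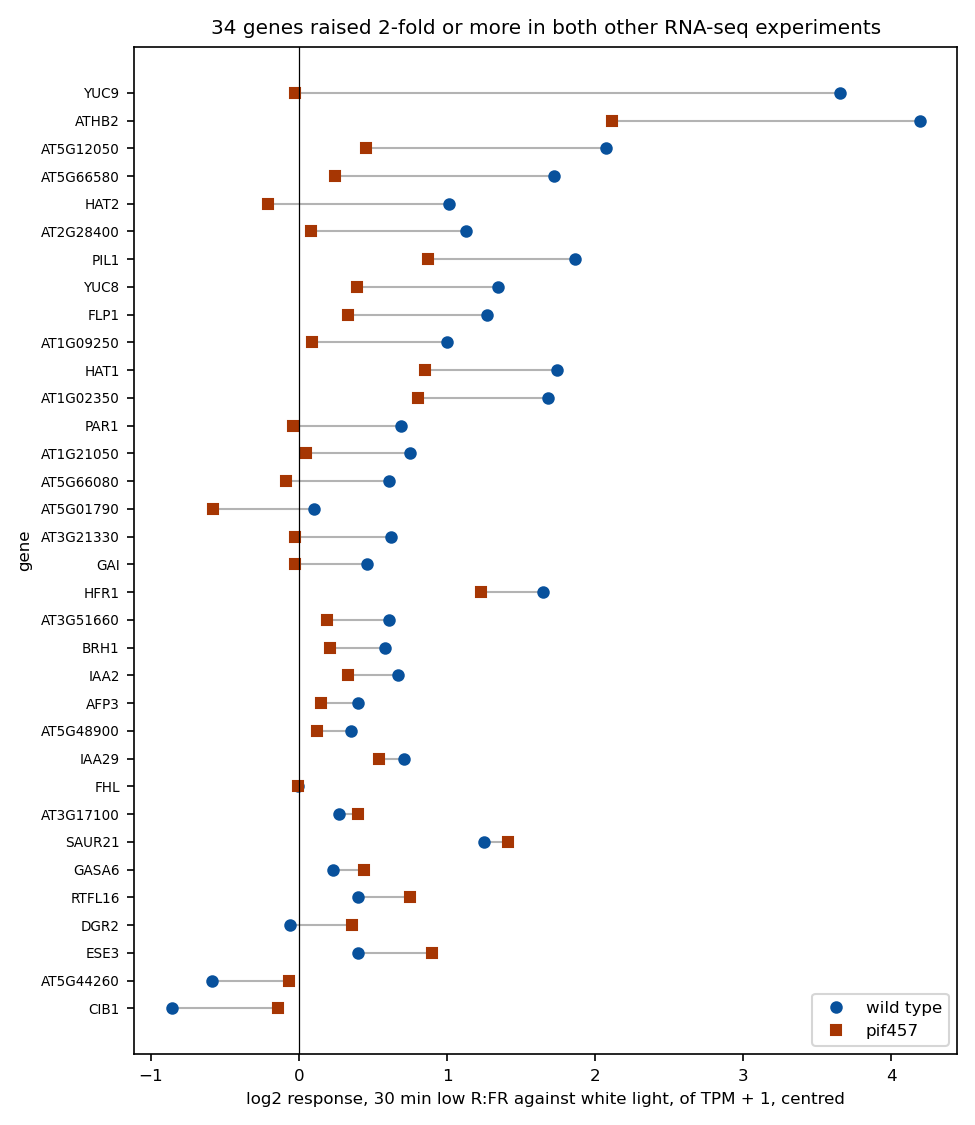
Centred log2 response to 30 min of low R:FR in wild type (circles) and pif457 (squares) for the 34 genes raised at least 2-fold in both other RNA-seq experiments, in order of the interaction. The pif457 value lies left of the wild type value for 25 genes, with the widest gap at YUC9 (3.65 against -0.03), and right of it or level with it for the others.

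FSD1 had the largest higher interaction among called genes of mean TPM of at least 5; that of AT3G41761, described further on, was larger at a lower level. FSD1 (AT4G25100), an iron superoxide dismutase of the chloroplast, went from 194 and 173 TPM to 108 and 87.1 TPM in wild type and from 130 and 126 TPM to 358 and 521 TPM in pif457. The directions were opposite and no 2 groups overlapped. The interaction was 2.65 (SE 0.274, adjusted p = 0.0327, limma) and 2.91 centred (adjusted p = 2.69e-05), with centred responses of -0.97 in wild type (adjusted p = 0.0048) and 1.94 in pif457 (adjusted p = 9.55e-05). As deposited the call held only without pif457 30 min replicate 2 (adjusted p = 0.0438) and otherwise lay at 0.0612 to 0.185, whereas centred it held without each of the 8 libraries. FSD1 was not called with tagged PIF7 (-0.36, at an unadjusted p under 0.05, limma) or at 2 h in wild type (0.16, not at that level).

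The other 9 genes of this direction by the size rule passed only when centred, a use of the rule decided after values were seen. YSL2, a transporter of metals bound to nicotianamine, was at 4.66 to 4.96 TPM in all wild type libraries and went from 5.70 and 5.77 TPM to 14.5 and 20.8 TPM in pif457. Its centred interaction was 1.74 (adjusted p = 0.00399, limma), lost without pif457 30 min replicate 2 (0.0555). ACR9, AT2G05540, CYP71B4, AT5G22270, BT5, AT2G46600, GER2 and AT5G25240 had centred interactions of 1.25 to 1.71. These 8 calls were also lost without pif457 30 min replicate 2, and AT5G22270, BT5, GER2 and AT5G25240 held in only 2 of the 8 fits that left out a library. AT2G05540 was the most abundant, going from 369 and 489 TPM to 232 and 236 TPM in wild type and from 224 and 276 TPM to 305 and 435 TPM in pif457. AT2G05540 and ACR9 were also lowered at 2 h of low R:FR in wild type (-2.04 and -0.90, adjusted p = 0.0018 and 0.0464, limma). They were the 2 of the 10 genes called there, where the share over all genes was 1.97%. With tagged PIF7 at 30 min 2 of the 10 genes were called, where the share over all genes was 4.83%. ACR9 was higher (0.60, adjusted p = 0.0145, limma) and AT5G22270 lower (-1.30, adjusted p = 0.00717), and the 10 ranged from -1.30 to 0.61. An unadjusted p under 0.05 was reached by 7 of the 10 there and by 4 at 2 h. Among all genes 4848 of 24589 and 3690 of 25331 reached it. Among the 10 genes including FSD1, 6 wild type responses and 4 pif457 responses passed when centred, against 1.55% and 0.714% of all genes. The 10 were chosen by the interaction, which holds both responses.

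Besides ATHB4, the 14 genes of largest size among the lower calls when centred, at a mean TPM of at least 5, were PRP3, HRGP1, AGP3, EXT13, AT1G05240, AT3G54580, AT4G38080, AT4G15160, AT5G14330, AT2G48130, PELPK2, AT2G25980, AT4G20390 and AT2G23540. PRP3, HRGP1, AGP3 and EXT13 belong to families of proline-rich, extensin and arabinogalactan cell wall proteins, which no list used here covers, and no member of the cell wall loosening list (19 genes) was called. The 14 had interactions of -3.65 to -2.29 (adjusted p = 0.00394 to 0.048, limma). All 14 calls were lost without pif457 30 min replicate 2, 13 without pif457 30 min replicate 1 and 11 without WT 30 min replicate 1, and each call held in 2 to 7 of the 8 fits that left out a library. As deposited none passed (adjusted p = 0.0718 to 0.172; all 14 had an unadjusted p under 0.05). In all 14 both wild type 30 min libraries stood above both white light libraries, and in 10 both pif457 30 min libraries stood below. Since the 14 were picked by their interaction in these libraries, this order follows in part from the choice. PRP3, a proline-rich protein of root hair walls, went from 4.76 and 0.88 TPM to 24.7 and 20.0 TPM in wild type and from 1.84 and 5.49 TPM to 0.58 and 1.56 TPM in pif457. White light replicates of PRP3 thus differed several-fold within each genotype. AT2G48130 went from 14.6 and 12.3 TPM to 29.5 and 19.1 TPM in wild type and from 9.34 and 16.6 TPM to 1.75 and 3.33 TPM in pif457, and its response in pif457 passed when centred (-1.78, adjusted p = 0.0164). By limma none of the 14 was called in either other experiment, where 1.97% of all genes were called at 2 h and 4.83% with tagged PIF7. A count of 0 among 14 is near those shares, so nothing is read from it. Responses were 0.15 to 1.08 at 2 h (3 at an unadjusted p under 0.05) and 0.01 to 0.93 with tagged PIF7 (0 at that level). HRGP1, AT3G54580, EXT13 and other proline-rich genes share repeats, so levels of single copies are uncertain.

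Markers of root tissue moved with these genes. Summed over 14 root markers (PYK10, which alone exceeded the others together, left out), the wild type libraries held 122 and 88.8 TPM in white light and 250 and 186 TPM after 30 min, and the pif457 libraries 75.6 and 98.2 TPM, then 42.9 and 76.5 TPM. Of 15 markers 13 had a negative interaction, with a centred median of -1.58. When centred 1 of the 15 was called lower, where the share over all genes was 0.566%. PHT1;1, a phosphate transporter, was the 1 called when centred, a call kept in 4 of 8 fits that left out a library (from 15.3 and 13.5 TPM to 34.8 and 23.0 TPM in wild type, from 11.9 and 16.6 TPM to 5.03 and 8.62 TPM in pif457, adjusted p = 0.0257). IRT1, the main iron uptake transporter of roots, went from 19.6 and 7.00 TPM to 41.4 and 21.9 TPM in wild type and from 6.54 and 7.38 TPM to 0.99 and 2.38 TPM in pif457 (adjusted p = 0.0521 centred). NRT2.1 was listed at 0 in both pif457 30 min libraries, and no other marker was listed at 0. PYK10, SCR, SHR and WOX5 did not follow, with centred values of -0.10, -0.07, -0.20 and 0.81. The antenna genes, used as shoot markers, took 7.73% and 8.95%, then 5.40% and 4.84% of TPM in wild type and 7.61% and 7.00%, then 4.67% and 5.55% in pif457. In bulk seedlings fewer cells of a type and less RNA per cell cannot be told apart, and the part of root tissue in these calls was not tested.

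Heat shock genes also had a low median interaction, -1.24 centred over 9 genes. HSP17.4 (AT3G46230), a small heat shock protein gene, was called when centred (-3.62, adjusted p = 0.041, limma) and not as deposited (adjusted p = 0.0974). The centred call held in 3 of the 8 fits that left out a library. It went from 0.41 and 0.86 TPM to 1.43 and 2.68 TPM in wild type and from 17.5 and 7.37 TPM to 1.03 and 0.20 TPM in pif457. The high libraries were those of pif457 in white light. HSP17.6A was high in 1 of those (24.4 and 2.24 TPM) and was not called (adjusted p = 0.0747), nor was HSP70 (12.8 to 44.7 TPM, adjusted p = 0.0887).

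The other 6 genes called as deposited were low or listed at 0 in some groups, and were named after their values were seen. MIR848, a microRNA locus, was listed at 0 in 6 libraries and at 1.15 and 0.95 TPM in pif457 in white light. AT3G41761 was listed at 0 in both pif457 white light libraries and at 10.8 and 6.35 TPM after 30 min, while wild type went from 5.13 and 6.95 TPM to 2.57 and 3.08 TPM, and passed on both scales (adjusted p = 0.0315 and 0.00637, limma). MYB54 went from 0.48 and 0.32 TPM to 1.48 and 1.20 TPM in wild type and from 0.90 and 0.72 TPM to 0.05 and 0.11 TPM in pif457. AT1G67760, AT1G71000 and AT2G17070 never exceeded 1.65 TPM. Of the 6, AT3G41761 alone passed when centred, and there its call held without each library in turn. As deposited the 6 calls held in 1 to 3 of the 8 fits that left out a library.

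Genes with an altered response were set against deposited PIF7 binding events, called by the authors with GEM on ChIP of MYC-tagged PIF7. The lists held 1408 events at 30 min, 1052 at ZT4 against IgG and 998 at ZT4 against white light, and the assigned k-mer held CACGTG in 69.9%, 62.5% and 76.2% of them. An event of the 30 min list lay within 3 kb of 9.39% of genes tested. Of the 8 genes lower as deposited 3 had such an event (ATHB4, YUC9 and YUC5), and of the 2 higher 0 did. Of those lower when centred 26 of 138 (18.8%) did, and of those higher 5 of 59 (8.47%). Among the 34 genes raised in both other experiments 29 (85.3%) did. The authors' fold over control at 30 min was 7.5 for ATHB4, 3.0 for YUC9, 5.7 for YUC5, 9.5 for YUC8 and 8.2 for PHYB. YUC8, PIL1, HFR1 and PHYB thus had events and no interaction call, and HAT3 and YUC2 had a centred call and no event within 3 kb.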

How the data were processed

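RNA was measured in 8 libraries. The authors' deposited TPM per gene model were made with STAR 2.6.0c and RSEM 1.3.0 on TAIR10, and ChIP reads with Bowtie2 2.1.0, per the submitters' processing notes; which parameters were set is not given in the sources used here. PIF7 events carry the authors' signal strength, fold over control and −log10 q, as deposited; positions, k-mers, fold and, in 1 alternative, signal strength were used. The label of the pooled ZT4 event list and its samples' titles name light conditions oppositely, so of that list fold was not used, and its strength only to keep events above the list's median in that alternative.

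Because the files hold TPM, log2(TPM + 1) values, with a pseudocount of 1, went into limma 3.58.1 (R 4.3.3, eBayes with trend) in 4 groups with 4 residual degrees of freedom and no replicate block. Genes at 0 throughout were left out. Centring subtracted each library's median log2 over genes of mean TPM of at least 5 and added back the mean of these medians. The wild type 2 h experiment and the tagged PIF7 time course were fitted separately. Fits were tested on simulated data. No shift between libraries was put into these data, so they did not test how either scale handles such a shift. TPM keeps no depth, so no count test or counting interval was possible. All value columns belonged to a sample.

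Members, lists and tests were chosen with earlier results of these data known. The naming rule took up to 15 lower and 10 higher called genes of mean TPM of at least 5 by size, PIF4, PIF5 and PIF7, 7 panel genes (PIL1, ATHB2, HFR1, IAA19, IAA29, YUC8 and XTH15), the 3 members with the smallest p in each list, and pif457 responses that passed at a mean TPM of at least 5, of which there were 0 as deposited. Some of the genes it picks are left unprinted, and HAT1, HAT2, PKS1, PAR1, TAA1, DWF4, XTH22, IRT1, PHT1;1 and genes of the list raised in both other experiments were named after their values were seen. The 20 lists hold 321 genes. Symbols came from RefSeq (TAIR10.1), which paired 32835 gene models. Its gene positions served only to find events within 3 kb, and no exact distance is given, since event positions are on TAIR10. Settings varied were a filter on low TPM, the pseudocount, no trend, a replicate block, removal of rRNA and organellar genes, centring, a 2-fold limit, each library left out, and other event distances and strengths. Robust variance and combinations with centring were added after seeing the data. Python 3.11.15 (pandas 2.3.3, matplotlib 3.10.9) made summaries and plots.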

Additional observations from a re-analysis of the deposited data

Results flagged for a closer look

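In 10 genes the test of the difference between genotypes passed as deposited (limma, adjusted over all genes). The log2 interaction, pif457 response minus wild type response, was -4.29 for ATHB4, -3.93 for YUC9, -3.15 for YUC5, 2.65 for FSD1 and 4.09 for AT3G41761. It was -1.68 for AT1G71000, -1.48 for MYB54, -1.20 for AT2G17070, -1.16 for AT1G67760 and -1.03 for MIR848, all genes that stayed at a low level. Centred, ATHB4, YUC9, YUC5, FSD1 and AT3G41761 passed and the other 5 did not.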

How the results depend on the processing

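The number of calls depended on scaling, on the filter and on the variance prior. Interaction calls, 10 as deposited, were 5 with a pseudocount of 0.1, 806 (74 higher, 732 lower) with mean TPM of at least 1, 447 with at least 5, 3 with no trend, 197 centred, 265 with robust variance and 745 with robust variance and the filter. With a filter at 1 TPM the prior had 576.5 degrees of freedom against 4.018 without it, so the filtered p-values rest almost wholly on variance pooled over genes and are not printed. Centred calls numbered 107 with that filter and 431 with the replicate block. Of the 806 filtered calls 152 were among the 197 centred ones.

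Under the same settings, in the order pseudocount 0.1, at least 1, at least 5 and no trend, wild type responses numbered 13, 619, 337 and 4, with 88 at a pseudocount of 5, 19 with the replicate block, 54 with rRNA and organellar genes removed, 378 centred, 281 and 568 with robust variance without and with the filter, and 18 at 2-fold. For pif457 responses they were 21, 593, 451 and 0, then 20 with those genes removed, 174 centred (411 with the block), 111 and 532. White light differences were 12, 232, 150 and 4, then 20 centred, 24 and 144. Differences after 30 min were 592 with no trend, 2367 with rRNA and organellar genes removed, 2332 centred and 779 at 2-fold.

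Leaving out each library gave 7 to 3145 interaction calls, 3 to 35 in wild type, 0 to 5511 in pif457, 0 to 28 in white light and 36 to 8025 after 30 min, and centred 11 to 627, 23 to 693 and 18 to 365. For the 2 h experiment it gave 262 to 493 and for the tagged PIF7 course 497 to 1548. Median interactions of genes raised there were -0.51 to -0.18 and -0.44 to 0.12, and -0.09 and 0.10 centred. A library left out leaves its group with 1 library, assumed to vary like the others.

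Called genes near an event were 1, 1 and 0 at 1 kb in the 30 min list and the ZT4 lists against IgG and white light, 102, 75 and 78 with the filter, and 31, 23 and 22 centred. List members called were 3 as deposited, 37 with the filter and 12 centred. Signs reversed in genes that were never called. With 1 library left out PIF4 ran from -0.22 (without pif457 30 min replicate 2) to 0.62, with -0.06 without WT white light replicate 2, and PIF7 from -0.35 (without pif457 30 min replicate 2) to 0.52, with -0.06 without pif457 white light replicate 2; PIF7 was -0.17 with a pseudocount of 0.1. IAA19 ran from -0.83 to 0.15 and IAA29 from -0.93 to 0.07, the highest values being those without WT white light replicate 1. The cause was not tested. Replicate numbers did not pair the libraries in all groups alike. Correlations of deviations ran from -0.26 to 0.366 over the 6 pairs of groups. The highest was that between the white light groups of wild type and pif457, and the 2 wild type groups had 0.135. The replicate block gave 9 interaction calls as deposited and 431 centred. The planned promoter G-box counts were not run, since no promoter windows were held. With 2 libraries per group and unknown depth, levels near 0 TPM are the least certain.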

Other observations

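AT2G01021, an rRNA-unit gene model, was listed at 0 TPM in 4 libraries (WT white light replicate 1, pif457 white light replicate 1 and both pif457 30 min libraries) and at 10636, 5724, 3238 and 7727 TPM in WT white light replicate 2, pif457 white light replicate 2 and WT 30 min replicates 1 and 2. It was among the genes tested and was not called for the interaction as deposited.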
